A study of Mus musculus with 7 samples.

Results

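Hes5 and 4 genes of the Zic family (Zic1, Zic2, Zic4 and Zic5) were examined for binding of Oct1 and Oct4 in 4 lists of ChIP-seq peaks from mouse cells. The 5 genes are members of a set of 21887 protein-coding genes. They were selected on measured values, since Hes5 and Zic1 had very high Oct1 scores in all 3 Oct1 lists and no Oct4 peak nearby. The scores and ranks of those peaks are therefore given as a description. ChIP-seq, chromatin immunoprecipitation followed by sequencing, marks where a protein sits on the genome as peaks of enriched fragments. Parental embryonic stem cells (ESCs) gave 1 list for Oct1 and 1 for Oct4, and the same cells on the way to mesoderm gave 1 Oct1 list at day 3 and 1 at day 6. All these cells carried the parental genotype. The differentiation ran for 2 days in medium with Bmp4 and then for 4 days with Rspo3 and LDN-193189, an inhibitor of BMP receptors. Each group was a single library, so there was no replicate error and no test between groups, and the series' inputs were not analysed here. Binding lists hold no expression values, so the labelled cell types could not be checked against markers.

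Oct1, encoded by Pou2f1, and Oct4, encoded by Pou5f1, belong to the POU family of transcription factors and bind the octamer and related DNA sequences. Oct1 is made in most tissues, whereas Oct4 is a core factor of pluripotency. Hes5 encodes a basic helix-loop-helix repressor that is a direct effector of Notch signalling and keeps neural progenitors from differentiating. The Zic genes encode zinc-finger transcription factors related to the Gli proteins, with known roles in the neural plate, neural crest, cerebellum and dorsal somites. They lie in the genome as neighbouring pairs, Zic1 beside Zic4 and Zic2 beside Zic5, so that a peak close to one gene of a pair is often close to the other.

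The 5 genes did not form one pattern. A strong Oct1 site lay 1329 bp beyond the 3′ end of Hes5 and another 1858 bp beyond the 3′ end of Zic1 in the ESC list. Both were listed at all 3 times and overlapped no Oct4 peak in ESCs, the only cells with an Oct4 list. The Hes5 site, however, covered the promoter of the next gene, Pank4, a relative of the pantothenate kinases, and so its name comes from the distance rule only. Zic4 shared the Zic1 site at a distance of 9431 bp. At Zic2 and Zic5 no single site was listed at all 3 times. Their Oct1 peaks were weak or middling, stood at other positions in ESCs than at day 3, and in ESCs lay on Oct4 peaks.

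Where a promoter sequence was given for a gene at these sites, it shows which octamer-like letters lie there. RefSeq promoters on GRCm38.p6, running from 250 bases before a transcript start to 50 after it, were given for 4 of the 5 members (not for Zic2) and for Pank4. For Zic1, Zic5 and Pank4 that start is the end of the gene in the gene table, whereas for Hes5 it lies 297 bp and for Zic4 3341 bp inside the gene. The first sequence is shown because all 3 Oct1 peaks of the Hes5 site cover it, the second because it is the table's promoter of Hes5 and no list has a peak on it, and the third because a day 6 peak covers it. They lie at chr4:154963873-154964172 (plus strand), chr4:154960673-154960972 (plus strand) and chr9:91365719-91366018 (minus strand). Capitals mark octamers with 1 letter changed and perfect palindromes of at least 14 bases.
Pank4: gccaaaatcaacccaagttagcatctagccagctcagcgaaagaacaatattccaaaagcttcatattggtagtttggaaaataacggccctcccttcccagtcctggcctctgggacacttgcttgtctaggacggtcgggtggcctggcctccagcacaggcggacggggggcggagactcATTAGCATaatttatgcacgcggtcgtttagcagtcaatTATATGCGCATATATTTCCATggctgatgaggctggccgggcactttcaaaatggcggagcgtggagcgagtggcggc
Hes5: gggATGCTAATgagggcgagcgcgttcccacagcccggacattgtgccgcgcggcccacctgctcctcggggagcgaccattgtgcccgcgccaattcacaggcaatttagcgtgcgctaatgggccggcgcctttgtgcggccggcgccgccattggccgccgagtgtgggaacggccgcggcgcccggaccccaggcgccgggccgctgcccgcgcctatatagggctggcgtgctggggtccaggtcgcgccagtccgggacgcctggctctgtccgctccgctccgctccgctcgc
Zic1: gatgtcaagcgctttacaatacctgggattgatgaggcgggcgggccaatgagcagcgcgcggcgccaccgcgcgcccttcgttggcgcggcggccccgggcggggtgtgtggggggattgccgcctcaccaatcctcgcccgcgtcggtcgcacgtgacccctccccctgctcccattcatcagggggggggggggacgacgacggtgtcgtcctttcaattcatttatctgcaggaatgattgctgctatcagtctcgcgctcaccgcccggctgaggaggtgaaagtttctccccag

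The motifs searched on both strands were the octamer ATGCAAAT, the same with 1 letter changed, the shorter site ATGCAT, and that shorter site in direct tandem, known as the MORE palindrome, on which POU proteins bind as dimers. None of the 4 member promoters nor that of Pank4 held the octamer or the tandem. The Pank4 promoter held ATTAGCAT from position 184 and ATTTCCAT from position 236, counted from 1 at the 5′ end, both on the reverse strand. It also held the palindrome TATATGCGCATATA from position 223, which shares its last base with the second of these matches. The Hes5 promoter held ATGCTAAT from position 4, which is the reverse complement of the first match in Pank4. No match was found in the Zic1 and Zic5 promoters, and Zic4 held ATCCAAAT from position 159. The variant ATGCTAAT and the palindrome length were chosen after the sequences had been seen.

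Over all 32851 promoters of the table, 1.74% held the octamer, 17.3% an octamer with 1 letter changed, 0.919% ATGCTAAT, 5.04% the shorter site and 0.00913% (3 promoters) the tandem, and 1247 of them held a palindrome of 14 bases or more. Among the 410 promoters that overlapped a peak in all 3 Oct1 lists, 12.2% held the octamer and 5.61% ATGCTAAT. Among the 7032 that overlapped a day 6 peak these shares were 1.44% and 0.739%, below those of all promoters. The Pank4 promoter belonged to a smaller set of 23 promoters of 20 genes that overlapped a peak of score percentile 99 or more in all 3 lists. Of these 23, none held the octamer, 11 held it with 1 letter changed, 2 held the tandem and 6 a palindrome of 14 bases or more. Promoters of one gene can overlap each other, so these are counts of sequences and not of independent sites. A match describes letters in the window and does not show a binding site, and no sequence was given for the Zic1 site itself.

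The site beside Hes5 was described by the score the authors gave each peak, its rank within its list (1 is the highest) and its percentile, the percentage of the list's peaks with a lower score, with tied peaks at the middle of their shared ranks. Hes5 (gene ID 15208) spans chr4:154960626-154962372 on the plus strand. In ESCs the Oct1 peak stood at chr4:154963701-154964460 with a score of 9366, rank 41 of 17709 and percentile 99.8. At day 3 it stood at chr4:154963711-154964590 with a score of 6384, rank 37 of 4867 and percentile 99.3. At day 6 it stood at chr4:154963801-154964970 with a score of 6131, rank 25 of 7758 and percentile 99.7. All 3 ranks are thus near the top, but ranks from lists of different length cannot show whether binding changed or stayed the same between times. The listed width was 760 bp in ESCs, 880 bp at day 3 and 1170 bp at day 6, where the last exceeded the width of 95.2% of the day 6 peaks. The annotated start of Pank4 (gene ID 269614) lay inside all 3 peaks, and the long noncoding RNA gene Gm42363 also overlapped the site. Whether the bound site bears on Hes5, on Pank4 or on neither was not tested.

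Beyond 10 kb, the Hes5 surroundings held 3 weaker sites, all with an ESC Oct4 peak. A peak 13926 bp before the gene had an Oct1 score of 166 in ESCs (percentile 71.9) and 173 at day 6 (percentile 17.0), and the ESC Oct4 list held the same place with a score of 184 (percentile 71.5). It lay just outside the 10 kb window. A further site 40199 bp past the gene, inside Plch2, a phospholipase C gene, had an Oct1 score of 72 and an Oct4 score of 110 in ESCs and was in neither later list. The third, 44656 bp before the gene, was an Oct4 peak alone with a score of 149.

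**Figure D1:**
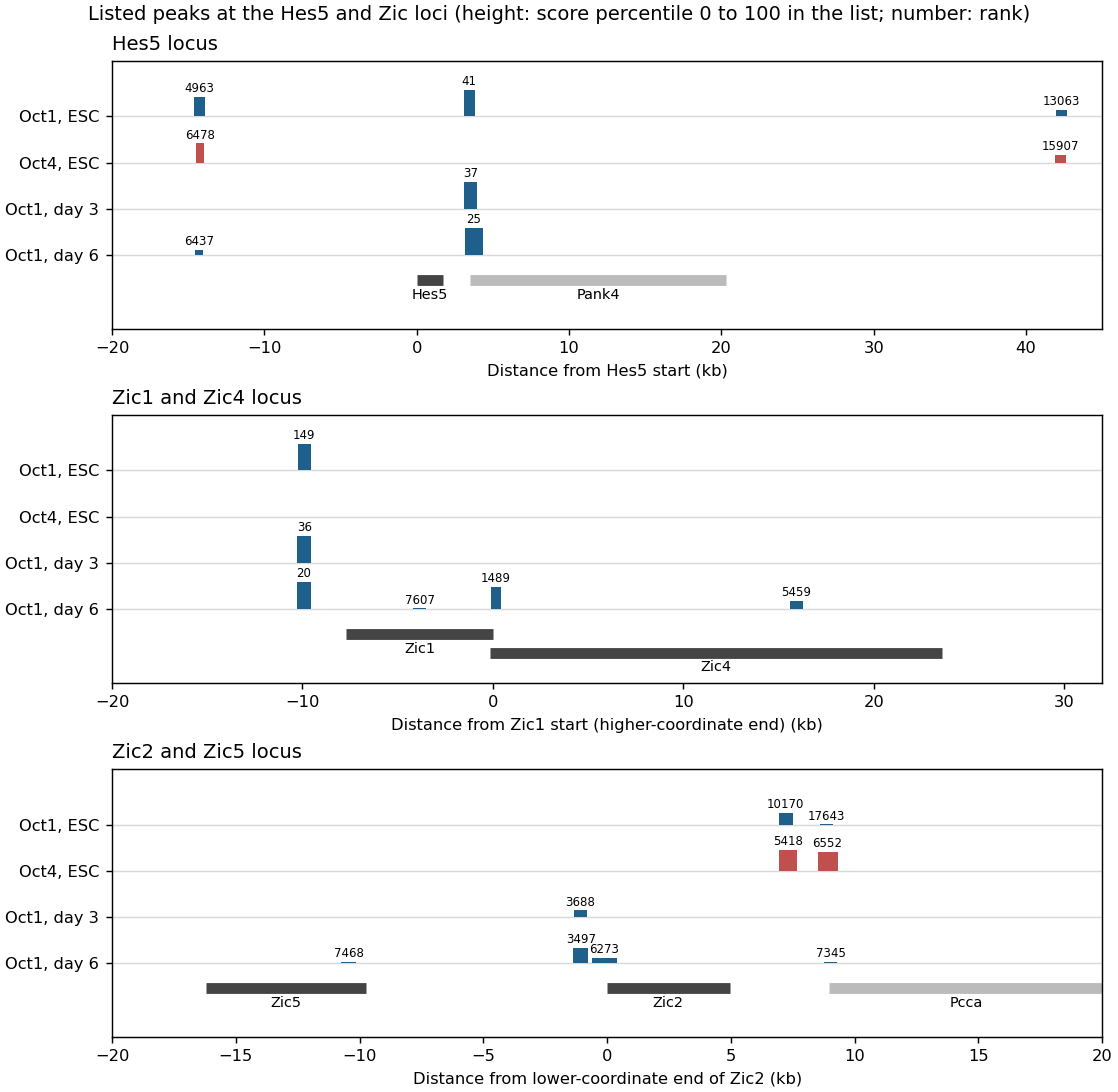
Peaks of the 4 lists at the 3 loci, with distance in kb on the horizontal axis and one row per list (blue for Oct1, red for Oct4); bar width is the peak's width, bar height its score percentile in the list, and the number its rank, with member genes in dark grey and the neighbours Pank4 and Pcca in light grey. The sites beside Hes5 (ranks 41, 37 and 25) and Zic1 (ranks 149, 36 and 20) recur in the 3 Oct1 rows, and the Oct4 row of the Zic1 and Zic4 locus is empty, while the Oct4 peak 44656 bp before Hes5 lies outside the plotted range.

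Zic1 (gene ID 22771), which acts early in the neural plate and in cerebellar progenitors, spans chr9:91358058-91365768 on the minus strand. Its lasting site is therefore downstream of the gene. In ESCs the Oct1 peak stood at chr9:91355511-91356200 with a score of 2154, rank 149 and percentile 99.2. The day 3 peak, at chr9:91355491-91356230, had a score of 6469, rank 36 and percentile 99.3. The day 6 peak, at chr9:91355471-91356210, had a score of 6518, rank 20 and percentile 99.7. The 3 peaks were 690, 740 and 740 bp wide, and their starts differed by at most 40 bp. No annotated gene or promoter lay under them. The closest annotated gene was the long noncoding RNA gene Gm40546 at 1408 bp from the joined site, nearer than Zic1 at 1828 bp.

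The Zic1 site stood far from other listed peaks in ESCs. It was the only ESC Oct1 peak within 50 kb of Zic1 or Zic4, but the median over all protein-coding genes was also 1. The nearest other ESC Oct1 peak lay 130711 bp away, farther than for 90.0% of the 7248 ESC Oct1 peaks that overlapped no Oct4 peak. The nearest Oct4 peak was 83561 bp away, farther than for 86.3% of the 7248 ESC Oct1 peaks that overlapped no Oct4 peak (median 11561 bp). Zic1 was selected with no Oct4 peak nearby, whereas those peaks only had to overlap none. The Oct4 distance is therefore a description, and nothing is read from its place among them. The Hes5 site was less remote, with 17031 bp to the nearest Oct4 peak and 17001 bp to the nearest other ESC Oct1 peak, against a median of 13706 bp for the latter among the same 7248 peaks.

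At day 6 the Zic1 and Zic4 locus held 3 further Oct1 peaks, none of which had a counterpart in ESCs or at day 3. The strongest, at chr9:91365671-91366180, covered the Zic1 promoter printed above and had a score of 1061, rank 1489 and percentile 80.8. Zic4 (gene ID 22774), the divergent neighbour at chr9:91365631-91389351, overlaps the start of Zic1 in the annotation, so this peak also lay inside Zic4. The same peak met the window of that promoter length drawn at the gene-table start of Zic4, chr9:91365381-91365680. The Zic4 promoter of the promoter table, at the start 3341 bp inside the gene, carried no peak in any list. A peak inside Zic4 at chr9:91381351-91382070 had a score of 298 (percentile 29.6), and one inside Zic1 at chr9:91361591-91362240 had a score of 61 (percentile 1.90). The last ranked 7607 of 7758, near the bottom of the list. Whether peaks inside these genes are exonic or intronic is not known from the gene table used.

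Zic2 (gene ID 22772), needed for forebrain and midline development, spans chr14:122475384-122480328, and Zic5 (gene ID 65100), a gene of the dorsal neural tube and neural crest, lies next to it at chr14:122459160-122465658 on the minus strand. In ESCs, 2 Oct1 peaks stood past the higher-coordinate end of Zic2. The nearer one, at chr14:122482321-122482890, had an Oct1 score of 92 (rank 10170, percentile 42.3) and an Oct4 score of 199 (percentile 76.2), and lay in the long noncoding RNA gene Gm33769. The other, at chr14:122484001-122484500, had an Oct1 score of 32 (rank 17643, percentile 0.359) and an Oct4 score of 182 (percentile 71.2). It overlapped one of 2 promoters in the table for Pcca, which encodes a subunit of propionyl-CoA carboxylase. That promoter held ATGCCAAT, an octamer with 1 letter changed, from position 201. Both places thus carried Oct4 as well as Oct1.

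In differentiating cells the Oct1 peaks of this pair lay on the lower-coordinate side of Zic2, apart from one at day 6. A site 754 bp from the lower-coordinate end of Zic2, inside the long noncoding RNA gene 2610035F20Rik, had a score of 100 at day 3 (rank 3688, percentile 24.0) and of 568 at day 6 (rank 3497, percentile 54.9). At day 6 a second peak of 1010 bp, with a score of 193 (percentile 19.1), overlapped that end of Zic2 itself. A weak peak with a score of 76 (percentile 3.67) lay inside Zic5, and the same Pcca promoter again held a peak, with a score of 87 (percentile 5.27). Zic5 had no peak within 10 kb in ESCs, since the nearest Oct1 peak was 16663 bp away, and its day 3 peak counted for it at 8373 bp. The peak inside Zic5 lay 10144 bp from Zic2, just outside the window.

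**Figure D2:**
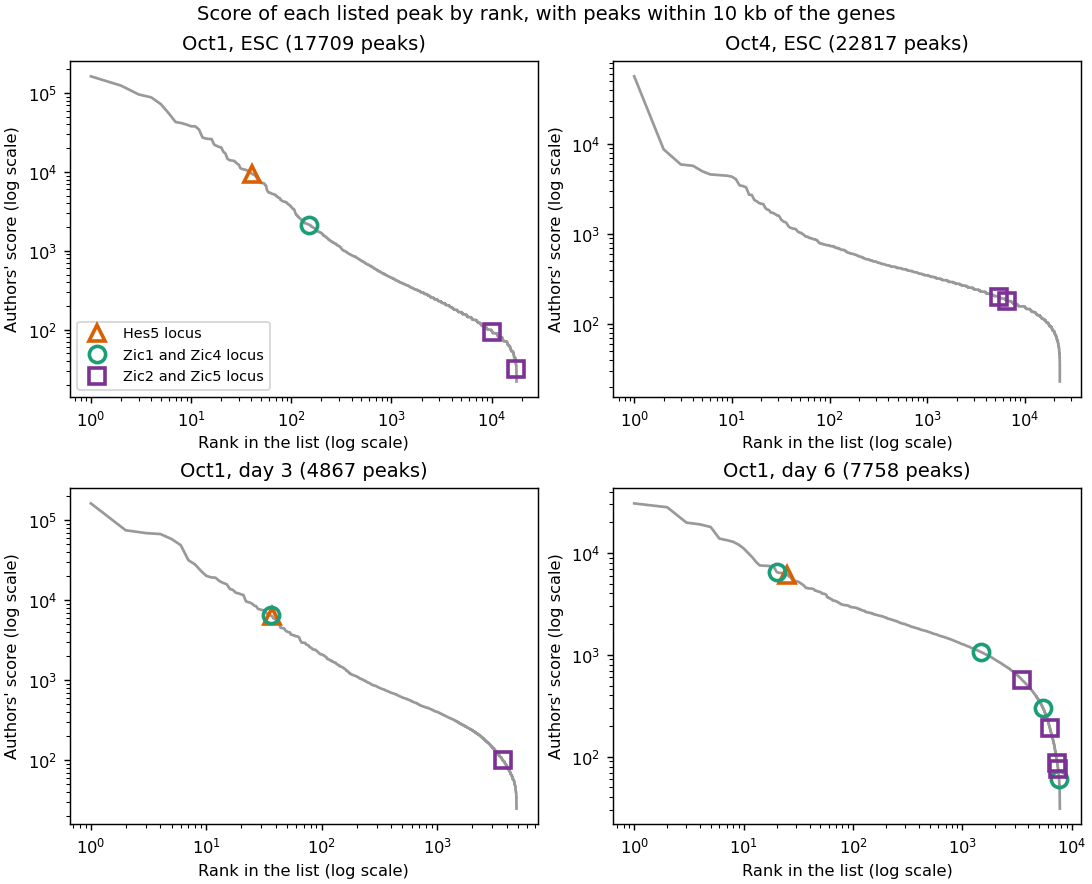
Authors' score (vertical, log scale) against rank (horizontal, log scale) for every peak of each list, as a grey line, with the peaks within 10 kb of the members marked by locus. In the Oct1 lists the Hes5 and lasting Zic1 peaks lie between rank 20 and rank 149, while all peaks of the Zic2 and Zic5 locus lie at rank 3497 or beyond.

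Counted by gene, 4 of the 5 members had an ESC Oct1 peak in the body or within 10 kb, and 35.2% of all protein-coding genes did. All 5 had one at day 3 (24.6% of all genes) and at day 6 (41.5%), and only Zic2 had an ESC Oct4 peak (40.2%). In all 3 Oct1 lists there was a peak for 4 members, against 11.2% of all genes, and 3 of them (Hes5, Zic1 and Zic4) had in addition no Oct4 peak (2.06%). The Oct1 lists chose the genes, so nothing is read from these counts. The members are not separate observations either, because 4 distinct ESC Oct1 peaks served 4 of them, and 3 day 3 peaks and 9 day 6 peaks served all 5. The stricter pattern, a percentile of at least 99 in the 3 Oct1 lists with no Oct4 peak, held for 14 genes (0.0640%), among them Hes5 with Pank4 and Zic1 with Zic4, each pair through 1 site. When a peak was counted only for its nearest protein-coding gene, Zic1 was the only member with a peak in all 3 Oct1 lists, since the Hes5 site fell to Pank4.

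Within 50 kb, all 5 members had a peak in each Oct1 list, beside 58.7% of all genes for ESCs, 41.5% for day 3 and 57.9% for day 6. An ESC Oct4 peak lay within 50 kb of Hes5, Zic2 and Zic5 but not of Zic1 and Zic4, and 62.5% of all genes had one. At the promoters themselves the picture was thinner. Of the 4 member promoters in the table, only that of Zic1 overlapped a peak, and it did so only at day 6. With windows drawn at the gene-table starts instead, the day 6 peak also met that of Zic4, and Hes5 and Zic5 still had none in any list. Among the 17492 protein-coding genes with a promoter in the table, an Oct1 peak lay on it for 5.81% in ESCs, 14.1% at day 3 and 31.0% at day 6, and an Oct4 peak for 4.18%.

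Joined by overlap across the lists, the peaks within 10 kb made 10 sites. The 2 described above were listed at all 3 Oct1 times. Of the 4 sites in the ESC Oct1 list, 2 carried an ESC Oct4 peak, both beside Zic2. Of all 17709 ESC Oct1 peaks, 40.9% overlapped no Oct4 peak. In the day 6 list 9 of the 10 sites appeared, a count with no share over all sites beside it, so nothing is read from it. Of these 9, 5 appeared in that list alone. Of all 7758 day 6 peaks, 52.5% overlapped no peak of the other 3 lists, a share close to that of the member sites. Over the whole series, 532 ESC Oct1 peaks were listed again at both later times, of which 59.4% overlapped a promoter of the table and 16.5% lay neither on a promoter nor inside a protein-coding gene. Over all 17709 ESC Oct1 peaks these shares were 7.26% and 39.4%. In 27 of the 532 the percentile was at least 99 in all 3 lists, and 20 of these (74.1%) overlapped no Oct4 peak. That share was 55.1% for the 532 and 40.9% for all ESC Oct1 peaks. The Hes5 and Zic1 sites were among the 20. The Zic1 site had the lowest ESC rank of the 27 and was 1 of only 2 that lay neither on a promoter nor inside a protein-coding gene.

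**Figure D3:**
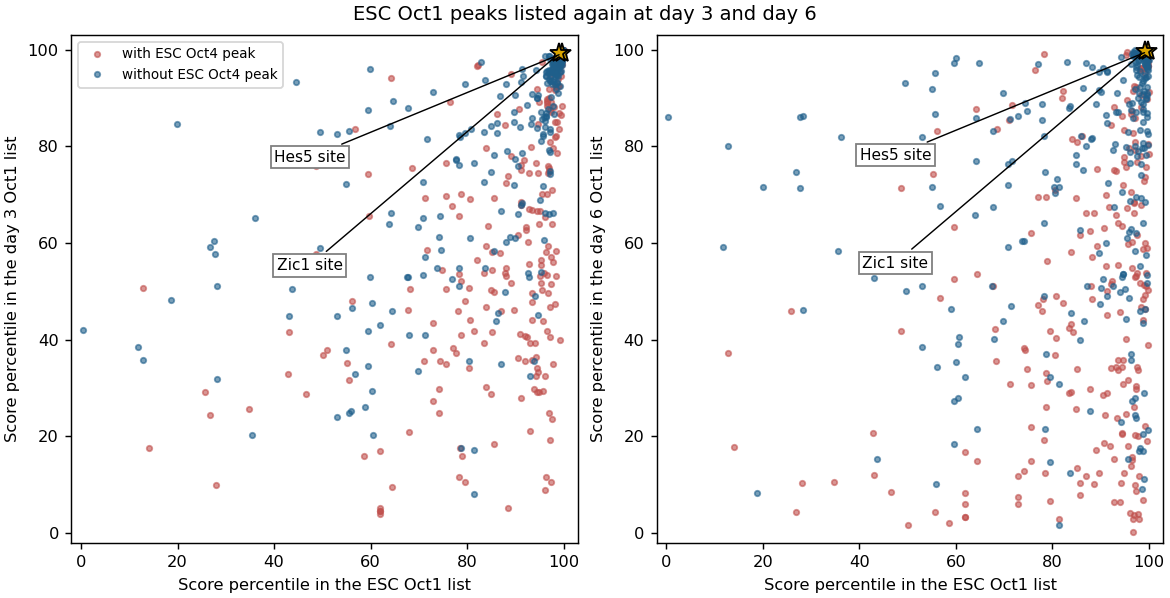
Score percentile in the ESC Oct1 list (horizontal) against that at day 3 (left panel) and day 6 (right panel) for the 532 ESC Oct1 peaks listed at both later times, in red where an ESC Oct4 peak overlaps and in blue where none does. The stars mark the Hes5 and Zic1 sites, whose percentiles lie between 99.2 and 99.8 on every axis.

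The genes most like Hes5 and Zic1 were found by the highest percentile within 10 kb in each of the 4 lists (0 where there was no peak), as the Euclidean distance over these 4 values. Pank4 has the same peaks as Hes5, and Zic4 the same as Zic1 in this measure, so their distance is 0 and they were left aside. For Hes5 the next were Thra, a thyroid hormone receptor gene (distance 0.382 percentile points), Wwtr1, which encodes the Hippo pathway coactivator TAZ (0.410), Ercc2, a helicase gene of nucleotide excision repair and transcription factor TFIIH (0.418), Catsperz, with the same peaks as Kcnk4 (0.514), and LOC108167694, with the same peaks as Gm20783 (0.609). For Zic1 the next were Ercc2 (0.546), Pank4 with Hes5 (0.614), Wwtr1 (0.662), Nup160, a nuclear pore gene that shares its peaks with Fnbp4 (0.688), and Thra (0.766). All of these had no Oct4 peak and percentiles of 98.7 or more in each Oct1 list. Since the percentile has a ceiling, such distances do not separate genes within the top of the lists, and the order among them carries no weight.

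**Figure D4:**
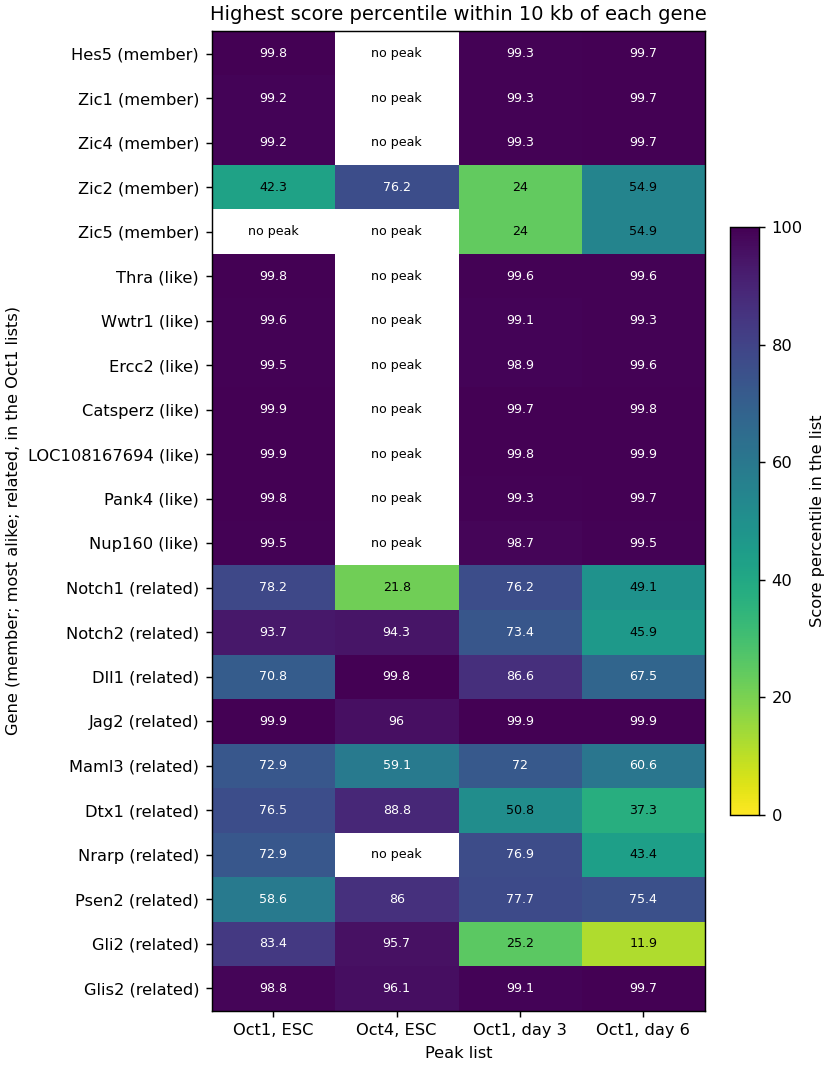
Highest score percentile of any peak within 10 kb of a gene (rows) in each list (columns), with the values printed in the cells and white cells where there was no peak; rows are the 5 members, the genes most like Hes5 and Zic1, and the related genes with a peak in all 3 Oct1 lists. Hes5, Zic1 and Zic4 stand at 99.2 or more in the Oct1 columns, whereas Zic2 and Zic5 stand between 24.0 and 54.9 there wherever they have a peak.

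Other genes of the Hes and Hey family encode the repressors closest to Hes5. Within 10 kb, Oct1 peaks were listed for 3 of these 8 genes in ESCs, for 2 at day 3 and for 6 at day 6, Oct4 peaks for 3, and none had a peak in all 3 Oct1 lists. The shares of all protein-coding genes, in the same order, were 35.2%, 24.6%, 41.5%, 40.2% and 11.2%, and the counts at 3 and 2 of 8 are near them. Of the family, 4 genes outside the rule for named genes are given here, chosen after their values were seen. The highest day 6 percentiles were 87.3 at Hes3 and 86.4 at Hes6. Hes1, the family member most often paired with Hes5 in neural progenitors, had 2 day 6 peaks with a percentile of at most 32.9 and no peak in the other lists. Hes7, an oscillating gene of the segmentation clock, had an Oct1 peak (percentile 74.7) and an Oct4 peak (percentile 46.1) in ESCs, and no Oct1 peak later.

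Of 24 Notch pathway genes, Oct1 peaks were listed for 13 in ESCs, for 11 at day 3 and for 18 at day 6, and Oct4 peaks for 16, beside 35.2%, 24.6%, 41.5% and 40.2% of all genes. The window includes the gene body and so grows with gene length. The shares of all genes are not matched for length, and no enrichment is read from these counts. The median number of peaks per gene was 1 in the ESC Oct1, ESC Oct4 and day 6 lists and 0 at day 3, while the median of all protein-coding genes was 0 in each list. In all 3 Oct1 lists (11.2% of all genes) there were 8 of them, namely the receptors Notch1 and Notch2, the ligands Dll1 and Jag2, the coactivator Maml3, the modifiers Dtx1 and Nrarp, and Psen2 of the gamma-secretase complex. Jag2 stood highest, with rank 16 in ESCs (score 26148), rank 7 at day 3 (score 31637) and rank 10 at day 6 (score 11075), and an Oct4 peak of rank 921 overlapped the same site. Percentiles of the other 7 lay between 58.6 and 93.7 in ESCs, between 50.8 and 86.6 at day 3 and between 37.3 and 75.4 at day 6. Nrarp was the only one of the 8 without an ESC Oct4 peak. Its ESC Oct1 peak lay 9962 bp from the gene, while those at day 3 and day 6 overlapped it. At Notch2, Dll1, Maml3, Dtx1 and Psen2 the highest ESC Oct1 peak likewise overlapped neither the highest day 3 peak nor the highest day 6 peak. The percentiles of these genes at the 3 times are therefore not from one site. Only at Notch1 and Jag2 did the highest Oct1 peaks of all 3 lists overlap.

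The 6 Gli and Glis genes encode zinc-finger factors related to the Zic proteins. Of these genes, 5 had an Oct1 peak in ESCs, 2 at day 3 and 3 at day 6, and 4 had Oct4, where the shares of all genes were 35.2%, 24.6%, 41.5% and 40.2%. Again these shares are not matched for gene length, so no enrichment is read from the counts. Gli2, a mediator of Hedgehog signalling, had peaks in all 3 Oct1 lists, with highest percentiles of 83.4 in ESCs, 25.2 at day 3 and 11.9 at day 6. These peaks stood at 3 different places, starting at chr1:118873371 in ESCs, chr1:119004511 at day 3 and chr1:118938301 at day 6. Glis2 also had peaks in all 3 Oct1 lists, the highest ones at one place, 7190 bp from the gene in ESCs. Their scores were 1626 (rank 205) in ESCs, 4478 (rank 46) at day 3 and 6379 (rank 21) at day 6. In rank these came close to the Zic1 site, and like that site the place overlapped no ESC Oct4 peak. The 5 ESC Oct4 peaks within 10 kb of Glis2 stood elsewhere.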

How the data were processed

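The deposited data were 1 peak list for each of 4 libraries, without a header, giving chromosome, start, end, name and a whole-number score. The unit of this score, given by the authors per peak, is not stated, so it was used only within a list. Start and end, the other deposited values, were read in bp and are printed counting from 1. The submitters' processing notes name Novoalign 3.8.2 and mm10, which is GRCm38. The peak caller, threshold and control are not given in the sources used here, and the labels' protocols state a depth of 100 M read pairs (50 bp reads) in the same words for every library, while the reads obtained and mapped per library are not given. Each list came from 1 library.

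Genes and promoters came from RefSeq tables of GRCm38.p6. A peak counted for a gene if it overlapped the gene body or lay within 10 kb or 50 kb of it, and peaks were joined into sites by at least 1 bp of overlap. Positions were handled in Python 3.11.15 (numpy 2.4.6, pandas 2.3.3), and 3 overlap counts were repeated with bedtools 2.31.1 and came out equal. The functions for gene windows, ranks and overlaps were tested on simulated data. Figures used matplotlib 3.10.9. No genome sequence was used here. The members, the related gene lists and the rule for named genes (all members, the 5 most alike genes of Hes5 and of Zic1, neighbours of their sites, and related genes with a peak in all 3 Oct1 lists) were chosen with earlier results of these data known. The alternatives were other windows, higher scores only, equal list lengths, nearest gene only, and stricter or looser overlap. 1 related gene is not reported here.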

Additional observations from a re-analysis of the deposited data

How the results depend on the processing

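Of 30 alternative values for 7 counts, 19 stayed within 1.5 times of the reported one. The 2 sites in all 3 Oct1 lists remained 2 with overlap of at least 50% of each peak. They also remained 2 with the higher-scored 50% of each list and with every list shortened to 4867 peaks. These sites were selected for very high scores, so settings that keep the higher scores could not remove them. Nothing is read from those settings for these sites. The number of sites with an Oct4 peak was 2 under each overlap tried. Counts of members depended on how peaks were given to genes. With a window of 1 kb, 0 members had an ESC Oct1 peak, 1 a day 3 peak, 0 an ESC Oct4 peak and 0 a peak in all 3 Oct1 lists. With the nearest protein-coding gene only, these counts were 1, 2, 0 and 1. The higher-scored 50% of each list left 3 members with a day 3 peak. An ESC Oct4 peak was found for 3 members within 50 kb and for 0 with equal list lengths. No library was left out in turn and no paired analysis was possible because each group held 1 library. With the threshold and the mapped reads per library unknown, an unlisted place is not shown to be unbound.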
